A study of Mus musculus with 12 samples.

Results

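Gene expression in the regenerating liver of wildtype mice was compared between 36 h and 24 h after 2/3 hepatectomy, an operation that removes most of the liver and leaves the remaining lobes to grow back. The arrays were chosen by their labels, as wildtype controls at these times, which gave 4 of the 12 arrays of the series, 2 at 36 h and 2 at 24 h. All 17097 genes named by the platform annotation were tested. The animals of both groups were adult wildtype C57BL/6 mice, and each array carried liver RNA pooled from 3 animals. A replicate is therefore a pool, and the p-values measure the spread between pools, estimated jointly over all 6 groups of the series. Unoperated wildtype liver (0 h, 2 arrays) is given where it places a level, and Socs2-null liver on the C57BL/6 background, with 2 arrays each at 0, 24 and 36 h, where the same interval was compared. No group had a sham operation. Neither the hour of harvest nor the animals' sex was stated in the labels, so time after surgery and time of day cannot be told apart.

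Loss of liver mass brings resting hepatocytes back into the cell cycle in a loosely synchronous wave, in which DNA synthesis precedes mitosis. The remnant meanwhile goes on secreting plasma proteins, lipoproteins and bile, and the secretory load falls on the endoplasmic reticulum, whose chaperones are induced by the unfolded protein response. The liver also has a strong circadian clock, which sets the daily rhythm of many metabolic genes and of the timing of hepatocyte division. Gene groups for these processes, and for the other cell types of the liver, are described below by their counts and medians.

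Values are the deposited array intensities, and changes are differences of log2(intensity + 16), 36 h minus 24 h, with their standard error. The median intensity was 49.6 and 47.4 on the 36 h arrays and 47.3 and 45.7 on the 24 h arrays, and between 67.5% and 76.2% of the genes on these 4 arrays lay above the brightest of 17 tag control probe sets, which stand for background. The mean log2 level of 18 hybridization control probe sets was 9.21 and 9.07 at 36 h and 9.90 and 9.63 at 24 h. This technical measure therefore moved with the groups. Its part in the results was not tested beyond the covariate fit given with the counts. That fit takes its slope from differences between replicates and extends it across the gap between the times. Its term and time after surgery cannot be told apart, so medians given with it are descriptions. All 15 measured genes of the hepatocyte identity list lay above the tag controls on all 4 arrays. Of the markers of other cells, the Kupffer cell list summed to 8980.3 and 8705 at 36 h and 8316 and 8172 at 24 h, and the sinusoidal endothelial list to 3320.0 and 2980.4 at 36 h and 3871 and 4112 at 24 h. In RNA of whole liver, fewer cells of a type and less RNA per cell cannot be told apart.

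Between 24 h and 36 h, 41 of 17097 genes changed in wildtype liver (0.24%), 37 of them higher at 36 h (0.216%) and 4 lower (0.0234%), by limma at a Benjamini-Hochberg adjusted p of 0.05, with all genes in the adjustment. The rises included the apolipoprotein gene Apob, the fatty acid genes Elovl6 and Cpt1a, the canalicular transporter gene Abcc2, the liver transcription factors Nr5a2 and Prox1, and the clock genes Rora and Dbp. The falls included the clock repressor Cry1 and the abundant liver gene Selenbp2. At an unadjusted p under 0.05 there were 2556 genes. The arrays of all 41 separated the times, against 23.3% of all genes with both 36 h arrays above both 24 h arrays and 22.8% with both below. These are the arrays that made the calls, so the separation adds no support to them. Which genes were called depended on the processing too. Of the 41, 40 were still called with quantile normalization and 25 after centring on array medians. With only the wildtype arrays 39 of them were still called, but with only the 4 compared arrays 8 were. The count rests on which arrays share the estimate of spread. The SD between replicate arrays in log2 (root mean square over genes) differed between groups. It was 0.10, 0.16 and 0.20 in wildtype liver at 0, 24 and 36 h, and 0.15, 0.23 and 0.20 in Socs2-null liver. Without either wildtype 0 h array Apob was the 1 gene called, without either Socs2-null 0 h array 6 were, and without either Socs2-null 24 h array 179 and 181 were. Leaving out any 1 of the 4 compared arrays leaves 1 array in a group, and which genes were called changed each time. Most of the 41 were lost without the replicate 2 array at 24 h or without either array at 36 h. With the hybridization-control level as a covariate 0 genes were called (1913 at an unadjusted p under 0.05).

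**Figure D1:**
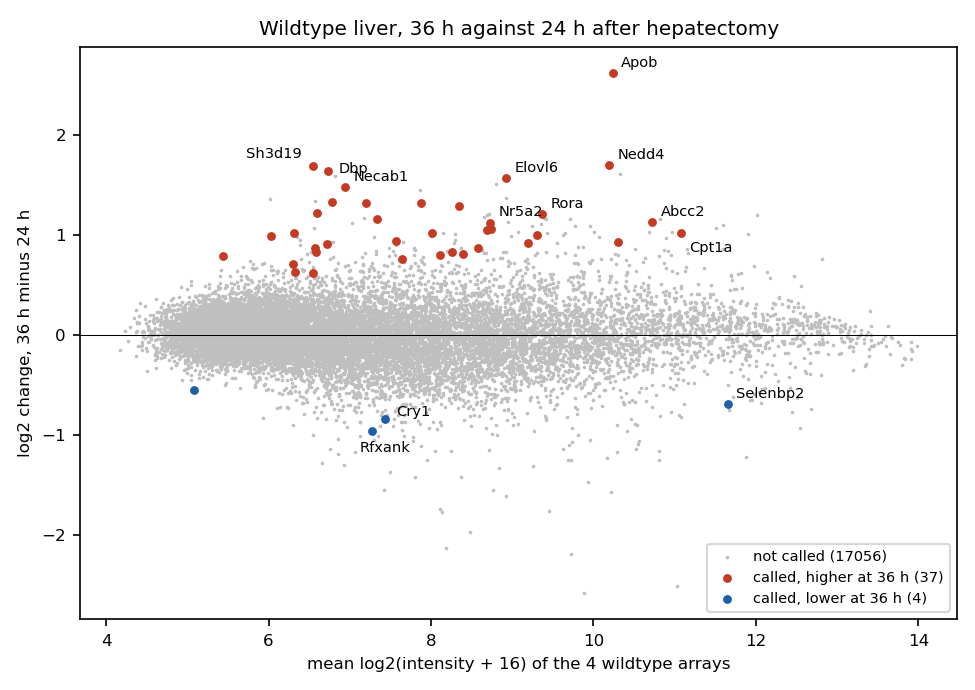
Log2 change between 36 h and 24 h (vertical axis) against the mean log2(intensity + 16) of the 4 wildtype arrays (horizontal axis), with 1 point for each of 17097 genes. Apob stands highest among the 37 genes called as higher (red), the 4 called as lower (blue) include Rfxank at -0.96 and Meioc, which is at background, and several uncalled genes (grey) lie further down.

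Apob encodes apolipoprotein B, the structural protein of very-low-density lipoprotein particles. Its intensity was 3594 and 2455 at 36 h, against 620.4 and 357 at 24 h and 886 and 937 at 0 h. Both 36 h arrays lay above every 24 h and 0 h array, and the log2 change was 2.62 ± 0.24, a 6.13-fold rise (adjusted p = 0.00456). Apob was called in 26 of 27 alternative analyses. The exception was the hybridization-control covariate, where its log2 change was 2.87 with an adjusted p of 0.199. With that term estimates moved both ways, from 1.02 to 1.20 for Cpt1a and from 1.13 to 0.70 for Abcc2. The intensity of Apob averaged 3025 ± 806 at 36 h and 489 ± 186 at 24 h (SD, n = 2 each). The other genes named with the counts were called less often. Of the same 27 alternatives, Cpt1a was called in 21, Nr5a2 in 18, Elovl6 and Dbp in 17, Prox1 in 16 and Rora in 15. Of 26 alternatives with a value, Abcc2 and Selenbp2 were called in 18 and Cry1 in 15.

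Other rises lay in lipid and bile handling. Elovl6, an elongase that lengthens newly made palmitate, read 903 and 740.4 at 36 h, against 271 and 261 at 24 h. The 36 h arrays were close to the unoperated ones, at 702 and 888, so the 24 h arrays were the low ones (log2 change 1.56 ± 0.24, adjusted p = 0.0320). Of the other probe sets of Elovl6, 1 also read higher, at 697 and 522 at 36 h against 183 and 256 at 24 h, and 1 read lower, at 78.8 and 67.1 at 36 h against 129 and 125 at 24 h. Cpt1a, which encodes the enzyme that commits long-chain fatty acids to mitochondrial oxidation, read 2913 and 3218 at 36 h and 1660.4 and 1366 at 24 h. This was a 2.02-fold rise with no overlap between the times (log2 change 1.02 ± 0.13, adjusted p = 0.0236). Abcc2, the transporter that moves conjugated bilirubin and other organic anions into bile, read 2353 and 2623 at 36 h, against 1202 and 1059 at 24 h and 2409 and 2449 at 0 h. It was at its unoperated level at 36 h and below it at 24 h (log2 change 1.13 ± 0.16, adjusted p = 0.0265).

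The lists to which these genes belong moved unevenly. Of 17 measured genes of fatty acid and triglyceride synthesis, Elovl6 rose and none fell, 11 had a higher and 6 a lower mean at 36 h (51.1% and 48.9% of all genes), and the median log2 change was 0.20, beside 0.0058 over all genes. With the hybridization-control covariate the list's median turned to -0.056. Thrsp, a lipogenic regulator, read 3459 and 2087 at 36 h and 1125 and 1262 at 24 h without passing the test (adjusted p = 0.292), and Scd1, the stearoyl-CoA desaturase, read 5079 and 5943 at 36 h and 7190.4 and 6879.7 at 24 h (adjusted p = 0.251). These members lay on opposite sides. Of 19 measured genes of fatty acid oxidation and PPARA targets, Cpt1a rose, none fell, and 14 had a higher mean (51.1% of all genes). The median was 0.12. The PPARA target Cyp4a10 read 3765 and 2991 at 36 h, against 5378 and 5365 at 24 h, a lower value that did not pass (adjusted p = 0.0892). In cholesterol synthesis 0 of 19 measured genes were called and the median was 0.17, which turned to -0.26 with the hybridization-control covariate. Nearest to the threshold was Hsd17b7, a sterol reductase, with 1437 and 1112 at 36 h, against 653 and 524 at 24 h (log2 change 1.09 ± 0.20, adjusted p = 0.0580).

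Of 18 measured genes of bile acid synthesis and transport, Abcc2 rose, none fell, and 11 had a higher mean at 36 h (51.1% of all genes). The median log2 change was 0.42. That median was 0.22 without the replicate 1 array at 24 h and 0.27 without the replicate 2 array at 36 h. With the hybridization-control covariate it was 0.040. The members with a higher mean were the transporters Abcc2, Abcb4, Abcg5, Abcg8, Slco1b2, Slco1a4, Slco1a1, Abcb11, Slc10a1 and Abcc3 and the repressor Nr0b2. Those with a lower mean were the enzymes Cyp7a1, Cyp7b1, Cyp8b1, Cyp27a1, Baat and Slc27a5 and the bile acid receptor Nr1h4. This split was seen in the values and was not tested. Both sides hold members that hardly moved, such as Slco1a1 at a log2 change of 0.0043 and Nr1h4 at -0.063. Abcb4, the phospholipid flippase of the canalicular membrane, read 2374 and 3891 at 36 h and 1617 and 1734 at 24 h, and Slco1b2, which takes up organic anions from blood, read 5099 and 3457 at 36 h and 2705 and 1460.2 at 24 h. Neither passed the test (adjusted p = 0.166 and 0.253). Baat, which conjugates bile acids to taurine and glycine, read 1038 and 1057 at 36 h and 1572 and 1516 at 24 h (adjusted p = 0.252). Cyp7a1, the rate-limiting enzyme of bile acid synthesis, read 351 and 53.7 at 36 h, against 235 and 455 at 24 h and 1738 and 1531 at 0 h (adjusted p = 0.510).

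Regulators of hepatocyte identity were among the rises as well. Nr5a2 encodes LRH-1, a nuclear receptor of bile acid and lipid genes, and read 717 and 519 at 36 h, against 311 and 238 at 24 h and 559 and 601 at 0 h. Its 24 h arrays lay below both other times (log2 change 1.12 ± 0.18, adjusted p = 0.0346). Prox1, a homeobox factor of the liver lineage, read 609 and 551 at 36 h and 326 and 227 at 24 h. It rose 2.06-fold (log2 change 1.04 ± 0.17, adjusted p = 0.0378), and a dimmer probe set of the gene moved the same way, with 325 and 209 at 36 h against 82.7 and 62.8 at 24 h. Of 15 measured genes of the identity list, 3 rose (Apob, Nr5a2 and Prox1) and 0 fell (0.216% and 0.0234% of all genes). A higher mean was seen in 10 and a lower one in 5 (51.1% and 48.9% of all genes). The median was 0.31, or 0.16 without the replicate 1 array at 36 h and 0.12 with the hybridization-control covariate. Hnf4a, the nuclear receptor at the centre of the hepatocyte programme, read 4294 and 3808 at 36 h and 3216 and 2691 at 24 h without passing (adjusted p = 0.139). The pioneer factor Foxa1 lay on the other side, at 279 and 326 at 36 h and 482 and 791 at 24 h (adjusted p = 0.217).

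**Figure D2:**
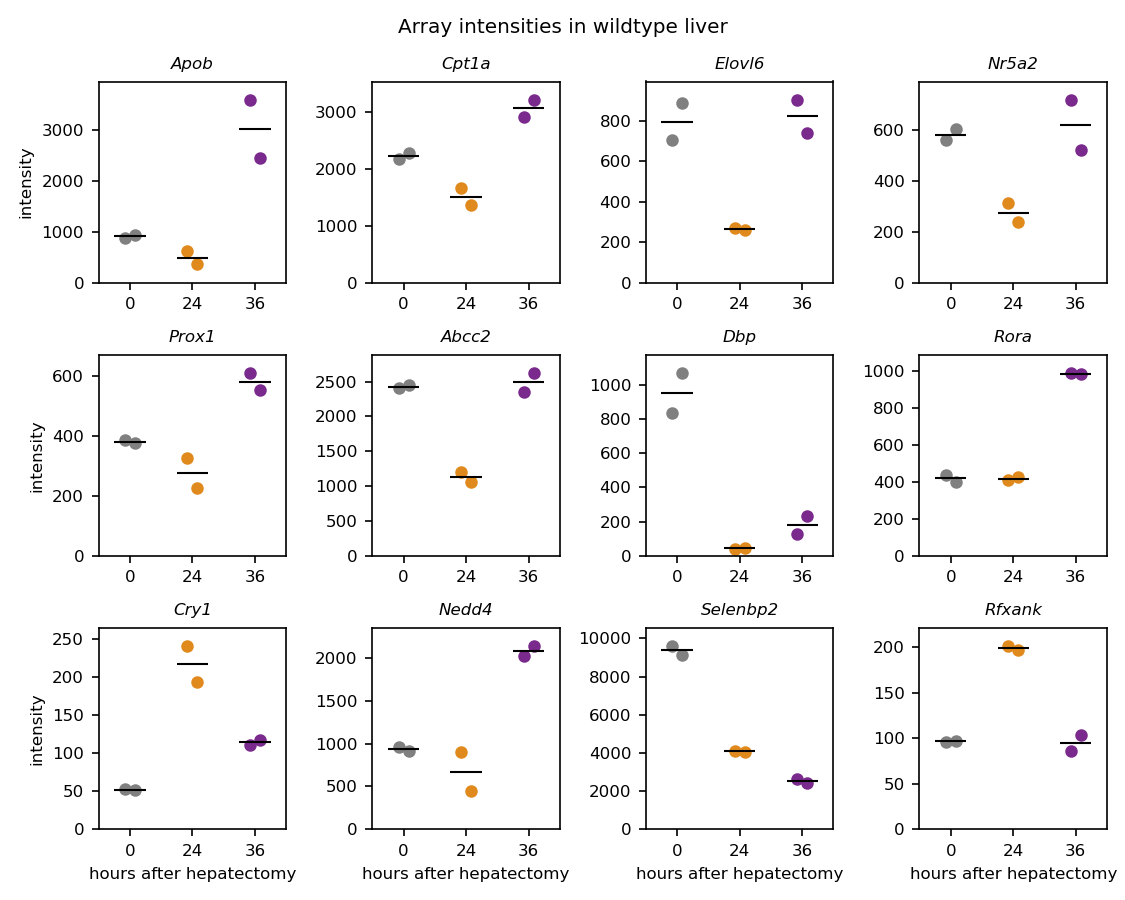
Intensity (vertical axis, linear, from 0) of 12 called genes on each wildtype array at 0, 24 and 36 h after hepatectomy, with points for arrays and a bar for the mean of 2. Elovl6, Nr5a2 and Abcc2 are low at 24 h and near their 0 h level at 36 h, Apob, Rora and Nedd4 stand above 0 h at 36 h, and Rfxank is high at 24 h alone among these times.

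The other rises named by the size of their change were less tied to a liver pathway. Nedd4, a ubiquitin ligase, read 2030.3 and 2139 at 36 h, against 903 and 443 at 24 h (log2 change 1.69 ± 0.24, adjusted p = 0.0267). Its second probe set moved little, with 1027 and 1120 at 36 h and 874 and 1003 at 24 h. Sh3d19, an adaptor protein, read 171 and 135 at 36 h and 41.2 and 31.8 at 24 h, where 1 of the arrays was under the tag controls (log2 change 1.68 ± 0.20, adjusted p = 0.0236). Necab1, a calcium-binding protein gene, read 185 and 192 at 36 h and 60.6 and 54.8 at 24 h (log2 change 1.47 ± 0.22, adjusted p = 0.0267). Mia2, whose product helps export large cargo from the endoplasmic reticulum, read 145 and 172 at 36 h, against 60.0 and 47.2 at 24 h and 116 and 110.4 at 0 h. Its 24 h arrays were the low ones (log2 change 1.33 ± 0.17, adjusted p = 0.0236). The remaining rises of this group were Secisbp2l (1.32 ± 0.17), Tenm3 (1.32 ± 0.18), Bclaf1 (1.29 ± 0.19), D630004K10Rik (1.22 ± 0.21) and Coro2b (1.15 ± 0.18), given as log2 changes.

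A further 20 genes rose by log2 changes of 0.62 to 1.06 and were singled out only after their values were seen. They included genes of adhesion and the cytoskeleton (Alcam, Kif21a, Dst, Plekha5), of transport and lipid assembly (Abca6, Slc16a7, Gpat4, Steap3), of ubiquitin transfer and repression (Herc1, Tbl1x) and Ppat, the enzyme that opens purine synthesis. The others were Zfp185, Mtmr1, Wbp1l, Ccser2, A330048O09Rik, Tcf24, Ttc14, Prelid3a and Emp1. Ppat read 239 and 249 at 36 h and 141 and 134 at 24 h, with no overlap. Herc1 was under the tag controls on both 24 h arrays and was at least 1.61-fold higher at 36 h (adjusted p = 0.0285). Tcf24 was under them at 24 h too, and no fold is given for it.

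As a description, 31 of the 37 rises had both 24 h arrays below both 0 h arrays (43.8% of all genes), and 29 had both 36 h arrays above both 0 h arrays (24.4% of all genes). Both held for 23 of them (1.77% of all genes). These counts use the 24 h and 36 h arrays that also made the calls.

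The clock runs on a loop in which ARNTL and CLOCK activate the Per and Cry genes, whose products repress them, while RORA activates and the REV-ERB proteins (Nr1d1, Nr1d2) repress Arntl. Cry1 read 109.9 and 118 at 36 h, against 240.2 and 193 at 24 h and 52.02 and 51.6 at 0 h. The 36 h arrays lay between the other times, and the fall from the 24 h level was 1.78-fold (log2 change -0.83 ± 0.13, adjusted p = 0.0337). Rora read 991 and 984 at 36 h, against 413 and 425 at 24 h and 439.8 and 400.3 at 0 h, so both 36 h arrays stood apart (log2 change 1.21 ± 0.18, adjusted p = 0.0285). The probe sets of Rora disagreed: 1 other read 662 and 610 at 36 h against 418 and 321 at 24 h, and 1 read 405 and 376 at 36 h against 555 and 548 at 24 h. Dbp, a transcription factor directly driven by ARNTL and CLOCK, read 125 and 234 at 36 h, against 41.7 and 47.2 at 24 h and 833 and 1068 at 0 h. It rose 3.11-fold (log2 change 1.64 ± 0.24, adjusted p = 0.0267) and stayed below its unoperated level on both 36 h arrays. The 24 h values of Dbp were near background, with the brightest tag controls at 40.46 and 41.75 on those arrays.

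Of 12 measured core clock genes, 1 rose (Rora), 1 fell (Cry1), and 8 had a lower mean at 36 h (48.9% of all genes). The median log2 change was -0.26, or -0.13 without the replicate 1 array at 24 h. Nr1d2 read 601 and 614 at 36 h and 164 and 395 at 24 h (log2 change 1.20 ± 0.28, adjusted p = 0.112), and Arntl read 156 and 97.2 at 36 h and 167 and 232 at 24 h (adjusted p = 0.310). Neither passed, although the arrays of each separated the times. Per1 was high on 1 array at 24 h, with 132 and 149 at 36 h and 318 and 144 at 24 h, and Clock itself read 531 and 431 at 36 h and 504 and 515 at 24 h. Of 21 measured clock outputs, Dbp rose and none fell, and 12 had a higher and 9 a lower mean (51.1% and 48.9% of all genes). The median was 0.03, which turned to -0.02 with quantile normalization and with centring on array medians, and was 0.22 with the hybridization-control covariate. Gys2, liver glycogen synthase, came nearest among the rest, with 1212 and 1037 at 36 h and 583 and 513 at 24 h (log2 change 1.01 ± 0.24, adjusted p = 0.112). The promoter of Cry1 is shown because it fell and carries an E-box, the site bound by ARNTL and CLOCK. In the window of 250 bases before and 50 after the start site, from RefSeq on GRCm38.p6, the E-box CACGTG, in capitals below and its own complement, was found in 2 of 10 core clock genes with a window (Per1 and Cry1) and in 7.15% of 32851 windows. A gene was counted when any of its windows matched, while the percentage is per window, so the 2 shares are in unlike units. The E-box also stood in 3 of 17 clock outputs with a window (Tef, Bhlhe41 and Ciart). Neither these 3 genes nor Per1 were called. The window of Cry1 is chr10:85185005-85185304 on the minus strand, with the E-box from 60 to 55 bases before the start site.
Cry1: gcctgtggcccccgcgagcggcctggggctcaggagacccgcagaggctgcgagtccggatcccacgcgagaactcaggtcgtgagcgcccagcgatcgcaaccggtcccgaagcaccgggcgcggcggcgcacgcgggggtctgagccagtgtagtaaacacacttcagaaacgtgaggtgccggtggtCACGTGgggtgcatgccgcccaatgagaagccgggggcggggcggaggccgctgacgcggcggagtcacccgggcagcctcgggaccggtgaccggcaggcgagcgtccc

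Among the other falls, Selenbp2, a selenium-binding protein gene with higher levels in male mouse liver, read 2637 and 2414 at 36 h, against 4115 and 4030.1 at 24 h and 9589 and 9152 at 0 h. The level was lower at each later time, and the fall between 24 h and 36 h was 1.61-fold (log2 change -0.69 ± 0.09, adjusted p = 0.0236). Its probe set carries the array maker's mark for sequence shared among transcripts, so signal from its close relative Selenbp1 cannot be told apart. Rfxank, a subunit of the factor that activates MHC class II genes, read 86.3 and 104 at 36 h, against 201 and 198 at 24 h and 95.8 and 97.3 at 0 h. It was high at 24 h (log2 change -0.96 ± 0.14, adjusted p = 0.0268), while its other probe set, without the mark and under the tag controls on 3 of the 4 arrays, read 42.0 and 34.7 at 36 h and 34.8 and 37.1 at 24 h. Meioc, a meiosis gene, was under the tag controls on all 4 arrays, and no fold is given.

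Genes of the stress response of the endoplasmic reticulum mostly had a lower mean at 36 h, and none passed the test. When unfolded protein builds up, ATF6 and the spliced XBP1 protein induce chaperones, and ATF4 induces genes of amino acid supply and cell death. Of 20 measured genes of the unfolded protein and integrated stress response, 0 were called and 18 had a lower mean at 36 h (48.9% of all genes). Both 36 h arrays lay below both 24 h arrays for 15 of the 20 (22.8% of all genes). The median log2 change was -0.65, or -0.39 without the replicate 1 array at 24 h and -0.97 without the replicate 2 array, and -0.29 with the hybridization-control covariate. Relative to 0 h the list's median was 1.27 and 0.77 on the 24 h arrays and 0.22 and 0.23 on the 36 h arrays. The 24 h pools therefore differed among themselves, and both 36 h pools lay below both.

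Creld2, an endoplasmic reticulum chaperone, read 727 and 1014 at 36 h, against 6981 and 3535 at 24 h and 568 and 786 at 0 h. Its log2 change was the furthest from 0 in the list, at -2.51 ± 0.44, and did not pass (adjusted p = 0.0588). Hsp90b1, which encodes the chaperone GRP94, read 4528 and 4768 at 36 h and 7908 and 6545 at 24 h (log2 change -0.63 ± 0.12, adjusted p = 0.0588). Hspa5, which encodes BiP, the main chaperone and sensor of the compartment, read 4525 and 5671 at 36 h, against 9596 and 7462 at 24 h and 3653 and 3905 at 0 h (adjusted p = 0.103). Its 36 h arrays lay between the other times. In the ATF4 branch, Atf4 itself read 989 and 1078 at 36 h and 2334 and 2003 at 24 h (log2 change -1.05 ± 0.23, adjusted p = 0.103), and Ddit3, the cell-death factor CHOP, read 112 and 135 at 36 h and 1093 and 314 at 24 h (log2 change -2.12 ± 0.48, adjusted p = 0.109). At 36 h both were close to their 0 h levels of 1059 and 896 for Atf4 and 109 and 117 for Ddit3. Atf5 ran the other way, at 2467 and 2200.4 at 36 h, against 1325 and 1357 at 24 h and 719 and 678 at 0 h (log2 change 0.79 ± 0.19, adjusted p = 0.109).

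**Figure D3:**
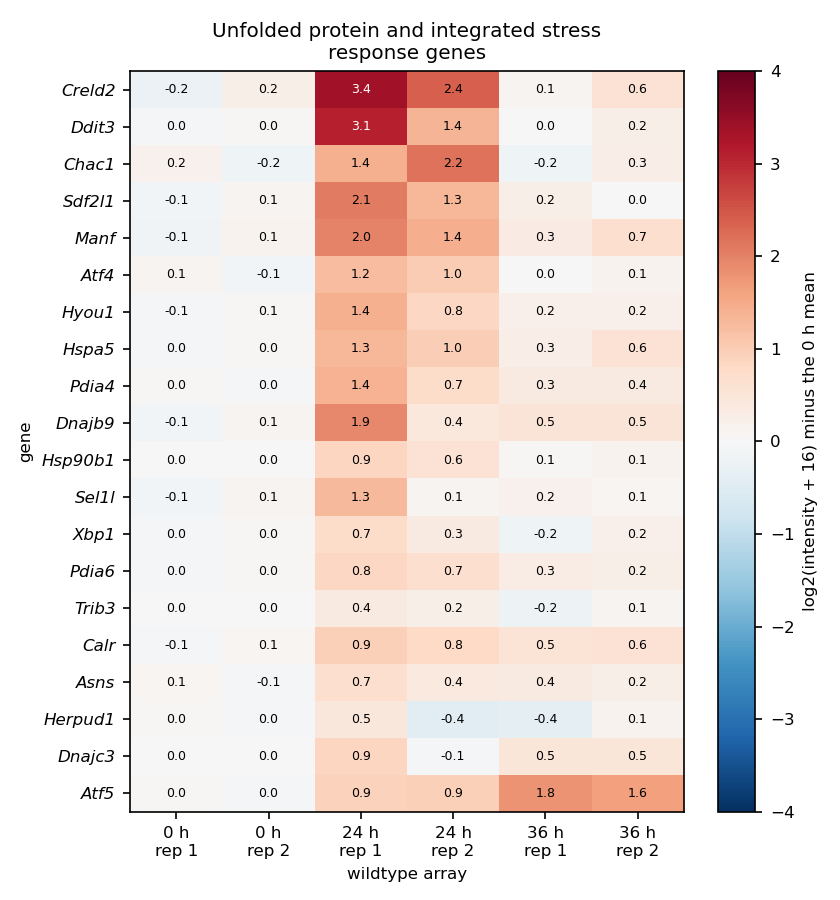
Log2(intensity + 16) of the 20 measured genes of the unfolded protein and integrated stress response on the 6 wildtype arrays, less the 0 h mean of each gene (colour and printed value), with genes ordered by their change between 36 h and 24 h. The 24 h columns are mostly red, more so in replicate 1, and the 36 h columns are pale for most genes. Atf5 in the bottom row has its highest values at 36 h, and Dnajc3 also has a higher mean at 36 h than at 24 h.

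The promoters of 3 of these chaperone genes are shown for the element that ATF6 binds together with NF-Y. This endoplasmic reticulum stress element, CCAAT and CCACG spaced by 9 bases of any kind, was searched on both strands of the same windows and stood in 6 of 18 listed genes with a window (Hspa5, Hsp90b1, Pdia6, Dnajc3, Creld2 and Calr) and in 0.119% of all windows. Of these 6, Dnajc3 had a higher mean at 36 h and the other 5 a lower one. The ATF4 element, TGATG followed by any base and AA, stood in 4 of 18 (Herpud1, Trib3, Asns and Chac1) and in 3.97% of all windows. A match describes the sequence and does not show binding. The list was made of genes of this response, so its share of matches is no evidence on the change between 24 h and 36 h. As for the E-box, genes are counted by any window and the percentages are per window. The stress element is in capitals in the windows below, which are chr15:88819396-88819695 on the plus strand for Creld2, chr2:34771840-34772139 on the plus strand for Hspa5 and chr10:86705395-86705694 on the minus strand for Hsp90b1, from RefSeq on GRCm38.p6. Creld2 holds it on the opposite strand, and Hsp90b1 holds it in both orientations.
Creld2: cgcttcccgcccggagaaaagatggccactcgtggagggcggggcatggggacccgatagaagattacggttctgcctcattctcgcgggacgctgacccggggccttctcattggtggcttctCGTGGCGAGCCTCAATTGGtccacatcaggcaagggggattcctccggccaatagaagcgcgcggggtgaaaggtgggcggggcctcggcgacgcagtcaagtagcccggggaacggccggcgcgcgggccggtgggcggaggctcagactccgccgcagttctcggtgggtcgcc
Hspa5: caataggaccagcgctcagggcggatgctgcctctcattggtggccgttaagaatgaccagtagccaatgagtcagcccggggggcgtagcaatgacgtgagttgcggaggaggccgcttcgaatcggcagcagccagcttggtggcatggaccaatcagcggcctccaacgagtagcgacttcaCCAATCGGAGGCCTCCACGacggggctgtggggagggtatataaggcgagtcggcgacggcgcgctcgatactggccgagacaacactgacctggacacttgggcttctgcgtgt
Hsp90b1: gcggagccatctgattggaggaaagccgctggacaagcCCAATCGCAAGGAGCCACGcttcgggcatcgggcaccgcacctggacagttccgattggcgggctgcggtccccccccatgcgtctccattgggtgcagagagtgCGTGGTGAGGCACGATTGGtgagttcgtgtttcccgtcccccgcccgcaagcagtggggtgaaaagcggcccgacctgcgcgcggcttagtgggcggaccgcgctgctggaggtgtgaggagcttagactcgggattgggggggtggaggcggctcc

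Heat shock and ribosome biogenesis genes lay on the same side. Of 10 measured heat shock genes 0 were called and 8 had a lower mean at 36 h (48.9% of all genes). The median was -0.40, or -0.26 without the replicate 2 array at 24 h. Dnajb1, a co-chaperone of HSP70, read 220.0 and 256 at 36 h and 417 and 464 at 24 h, with no overlap (log2 change -0.85 ± 0.20, adjusted p = 0.111). Of 22 measured ribosome biogenesis genes 0 were called. A lower mean was seen in 20, and 14 had both 36 h arrays below both 24 h arrays (48.9% and 22.8% of all genes). The median was -0.32, or -0.51 without the replicate 2 array at 36 h, and +0.31 with the hybridization-control covariate. Relative to 0 h this list's median was 1.05 and 0.83 at 24 h and 0.22 and 0.71 at 36 h. Nop56, a core protein of box C/D ribonucleoproteins, read 199 and 354 at 36 h, against 627 and 596 at 24 h and 179 and 148 at 0 h (adjusted p = 0.289). The replicate 1 pool at 36 h was near the unoperated level and the replicate 2 pool above it.

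The cell cycle lists held no called gene. Of 33 measured DNA replication genes, 28 had a lower mean at 36 h, 15 had both 36 h arrays below both 24 h arrays (48.9% and 22.8% of all genes), and the median was -0.24, but it was -0.011 without the replicate 1 array at 36 h, -0.42 without the replicate 2 array and -0.96 with the hybridization-control covariate. Relative to 0 h the list's median was 0.69 and 0.71 at 24 h and 0.25 and 0.62 at 36 h, so the 36 h pools differed from each other. Pcna, the sliding clamp of the replication fork, read 685 and 1037 at 36 h, against 1432 and 1350.3 at 24 h and 677 and 644 at 0 h (log2 change -0.71 ± 0.17, adjusted p = 0.111). Prim1, the primase subunit that starts new strands, read 108 and 142 at 36 h and 218 and 253 at 24 h (log2 change -0.84 ± 0.24, adjusted p = 0.169). For both genes the replicate 2 pool at 36 h was the higher of the pair.

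Of 40 measured mitosis genes, 29 had a higher mean at 36 h (51.1% of all genes). For 15 both 36 h arrays lay above both 24 h arrays (23.3% of all genes). The median was 0.14. It was 0.22 without the replicate 1 array at 36 h, 0.02 without the replicate 2 array at 36 h, 0.06 without the replicate 2 array at 24 h, and -0.03 with the hybridization-control covariate. Only 14 of the 40 lay above the tag controls on all 4 arrays, so most of these transcripts were near background. Hmmr, a spindle protein, read 109.9 and 93.1 at 36 h, against 56.2 and 46.0 at 24 h and 91.0 and 78.5 at 0 h (log2 change 0.81 ± 0.15, adjusted p = 0.0588). The 24 h arrays were below the unoperated ones. Cenpa, the centromeric histone, read 93.1 and 116 at 36 h and 66.7 and 77.6 at 24 h (adjusted p = 0.203). Of 22 measured regulators of entry into S phase 0 were called, and the median was 0.065, which turned to -0.28 with the hybridization-control covariate. Cdk4, the G1 kinase, read 304 and 459 at 36 h and 644 and 666 at 24 h (adjusted p = 0.162), and its partner cyclin gene Ccnd1 read 548 and 2185 at 36 h and 524 and 558 at 24 h (adjusted p = 0.342). The value of Ccnd1 rested on the replicate 2 pool at 36 h. Cdkn1a, which encodes the CDK inhibitor p21, read 861 and 1338 at 36 h, against 1643 and 702 at 24 h and 49.7 and 42.7 at 0 h. Its operated arrays overlapped and lay far above the unoperated ones (log2 change -0.0027 ± 0.34, adjusted p = 0.998).

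**Figure D4:**
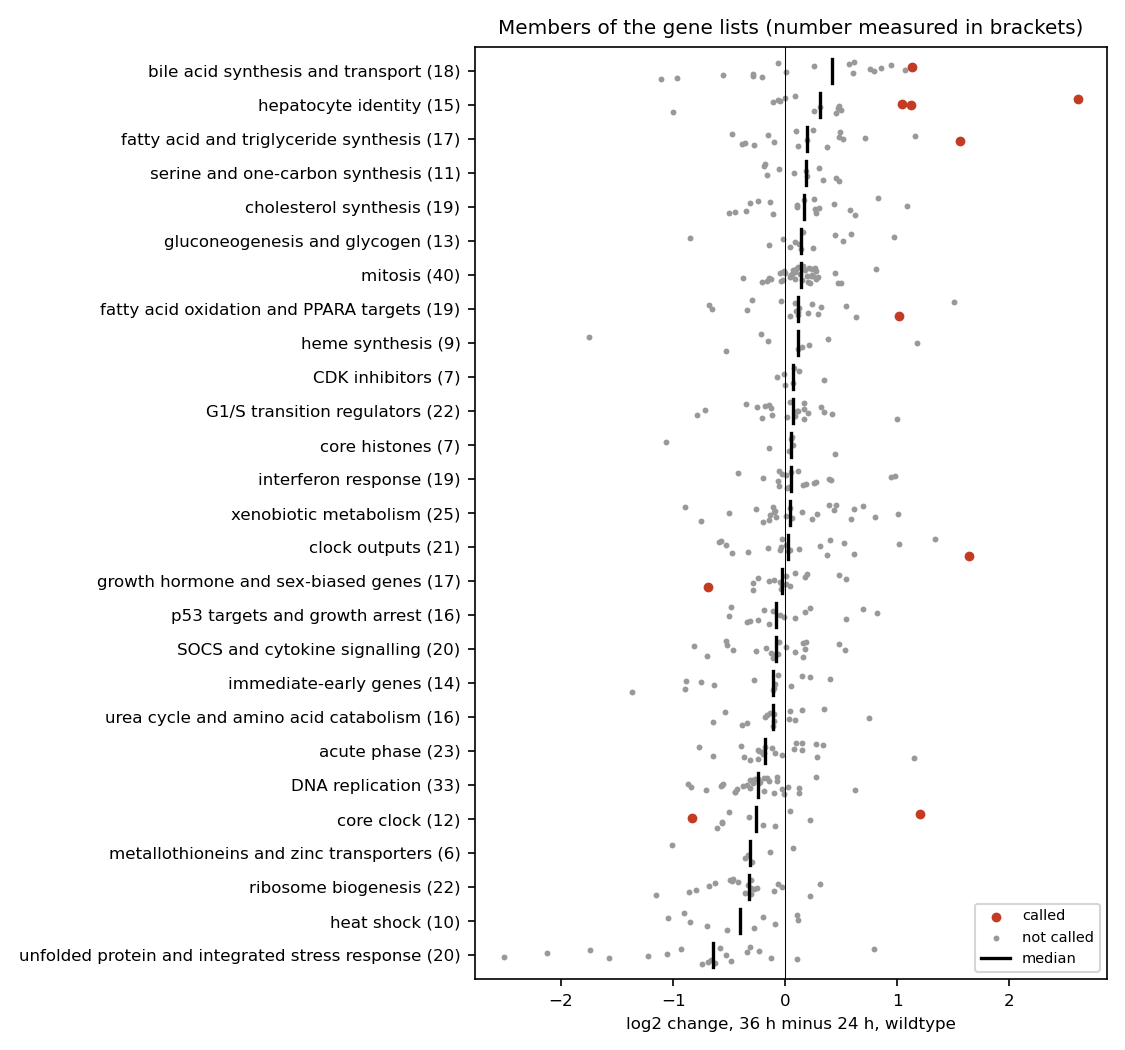
Log2 change between 36 h and 24 h in wildtype liver (horizontal axis) for the measured members of the 27 pathway lists (1 row each), with called genes in red, others in grey and the list's median as a black bar. With all 12 arrays in the fit and no covariate, the bile acid list has a median of 0.42 and the unfolded protein and integrated stress response list one of -0.65, and in each list members lie on both sides of 0.

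In the other pathway lists 0 genes were called, apart from Selenbp2 among 17 growth hormone and sex-biased genes. Acute-phase genes had a median of -0.18 over 23 measured members, which was -0.0026 without the replicate 2 array at 36 h and -0.11 with the hybridization-control covariate. Serpina3n, a protease inhibitor of this response, read 5807 and 3116 at 36 h, against 7433 and 7107 at 24 h and 1330.1 and 1398 at 0 h (adjusted p = 0.158). It stood above the unoperated arrays at both times. Among 14 immediate-early genes Fos read 60.3 and 148 at 36 h and 404 and 183 at 24 h (adjusted p = 0.199), and among 9 heme genes Hmox1, heme oxygenase, read 255 and 525 at 36 h and 1898 and 855 at 24 h (adjusted p = 0.259). In both genes the 36 h arrays lay below the 24 h arrays without passing the test. Medians lay between -0.11 and 0.18 for the immediate-early, p53, cytokine signalling, urea cycle, gluconeogenesis, xenobiotic, interferon, heme, histone, CDK inhibitor and serine synthesis lists. With the hybridization-control covariate they lay between -0.29 (urea cycle) and 0.20 (gluconeogenesis), and those of the immediate-early, cytokine signalling, xenobiotic, interferon, heme, histone, CDK inhibitor and serine lists changed sign. Of the 6 metallothionein and zinc transporter genes measured 5 had a lower mean (48.9% of all genes). Mt1 read 13771 and 11951 at 36 h and 15672 and 15852 at 24 h (adjusted p = 0.714).

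Markers of other cells gave 0 called genes in 10 lists. Of 14 Kupffer cell markers 10 had a higher mean at 36 h (51.1% of all genes, median 0.13), but 13 had a lower value with the hybridization-control covariate (median -0.38). Of 11 sinusoidal endothelial markers 9 had a lower mean (48.9% of all genes). Their median was -0.21, or -0.38 with the hybridization-control covariate. Clec4g, an endothelial lectin, read 911 and 697 at 36 h, against 1121 and 1286 at 24 h (adjusted p = 0.258), and Pecam1 ran the other way, at 79.5 and 70.6 at 36 h and 49.2 and 56.9 at 24 h (adjusted p = 0.153). Among 12 stellate cell and fibroblast markers Col3a1, a fibrillar collagen gene, came nearest to the threshold, with 712 and 822 at 36 h, against 267 and 309 at 24 h and 571 and 503 at 0 h (log2 change 1.37 ± 0.24, adjusted p = 0.0534). Col1a2 was under the tag controls on all 4 arrays, and Col1a1 read 65.1 and 60.1 at 36 h and 41.3 and 55.7 at 24 h (adjusted p = 0.368). The part of cell composition in the other results was not tested.

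The same interval was compared in Socs2-null liver, which lacks a feedback inhibitor of growth hormone signalling. In these livers 1 of 17097 genes was called (0.00585%), Tff3, a trefoil peptide gene, and 1230 genes had an unadjusted p under 0.05. Tff3 read 116 and 109.8 at 36 h and 349 and 310.1 at 24 h in Socs2-null liver, against 111 and 101 at 36 h and 137 and 128 at 24 h in wildtype liver, where it did not pass. The difference between genotypes in the change between 24 h and 36 h, wildtype minus Socs2-null, was called for 0 genes (0.0%) by limma with Benjamini-Hochberg adjustment, with 885 at an unadjusted p under 0.05. That count was 0 under every alternative that could be run. Of the 37 rises of wildtype liver, 36 also had a higher mean at 36 h in Socs2-null liver (53.7% of all genes), and 22 had both 36 h arrays above both 24 h arrays there (19.1% of all genes). Their median log2 change was 1.02 in wildtype, where they were chosen, and 0.31 in Socs2-null liver. Of the 4 falls, 2 had a lower mean at 36 h in Socs2-null liver (46.3% of all genes).

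Per gene, the Socs2-null arrays showed both like and unlike patterns. Apob read 1551 and 1815 at 36 h and 914 and 735 at 24 h in Socs2-null liver, a log2 change of 1.02 ± 0.24, against 2.62 ± 0.24 in wildtype liver (adjusted p of the difference = 0.795). Both genotypes had their higher arrays at 36 h. Cpt1a read 1366 and 1529 at 36 h and 1383 and 1525 at 24 h in Socs2-null liver, with overlap (adjusted p of the difference = 0.481). Cry1 read 234 and 279 at 36 h and 253 and 240.3 at 24 h there, again with overlap (adjusted p of the difference = 0.795). Selenbp2 read 2388 and 2478 at 36 h and 2206 and 2338 at 24 h, so its 36 h arrays were the higher ones there (adjusted p of the difference = 0.481). Dbp read 33.2 and 39.0 at 36 h and 32.1 and 29.8 at 24 h in Socs2-null liver, and 3 of these 4 arrays were under the tag controls, so no order is read from them. The unfolded protein and integrated stress response list had a median of -0.20 in Socs2-null liver, with 15 of 20 genes lower at 36 h (46.3% of all genes). The ribosome biogenesis list had a median of +0.11 there. None of the genes differed between genotypes past the threshold, differences between list medians were not tested, and the 2 arrays of a group limit what it could detect.

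Another probe set tested the same gene in some cases. Of the 41 called genes, 20 had 32 other probe sets, of which 26 moved in the same direction. Their log2 changes ran from 0.0002 (Kif21a) and 0.021 (Plekha5) up to 1.65 (Prox1), so the 26 include very small ones. A share over all genes is not given for them. With each gene read as the average of its probe sets, 26 of the 41 genes were still called and 15 were not. When all 45037 probe sets were tested together, 5 of the 32 other probe sets, from 5 genes, were called in the same direction. None was called in the opposite direction. In that test 1.68% of 11801 other probe sets of a gene were called, 1.53% higher at 36 h, and of 16139 probe sets tied to no single gene 0.911% were, 0.781% higher. Of the called genes, 9 were read by a probe set that carries the mark for sequence shared among transcripts. The count pools the suffix _s, as in Selenbp2, Abcc2 and Sh3d19, with the suffix _a, as in Nedd4, Rora and Cry1. The limit given for Selenbp2, signal from a related gene, is not stated for the probe sets with _a.

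Most of the called rises were long genes. Genomic span, from the start to the end of the RefSeq gene on GRCm38.p6, was known for 36 of the 37 and had a median of 70.3 kb, against 20.1 kb over 17055 genes, and 31 of the 36 lay above the median of all genes. The shortest was A330048O09Rik, at 1.47 kb, and the longest Tenm3, at 1297 kb. When all genes were split into quintiles by span, the called rises numbered 2, 1, 3, 12 and 18 from the shortest to the longest quintile and the called falls 0, 2, 1, 1 and 0. Over all genes the share with both 36 h arrays above both 24 h arrays was 20.4% in the shortest quintile and 29.7% in the longest, and the share with both below was 24.6% and 16.01% in the same order. The median log2 change was -0.0055 in the shortest quintile and 0.049 in the longest. On the 36 h arrays the median against 0 h was -0.071 and -0.127 in the shortest quintile and -0.052 and -0.081 in the longest, and on the 24 h arrays it was -0.098 and -0.083 in the shortest and -0.120 and -0.114 in the longest.

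The relation was small over the whole table, and 1 pair of replicates gave a value close to it in size. Across 17055 genes, which share the same 4 arrays and are not independent replicates, Spearman's rho between span and log2 change was 0.12 in wildtype liver and 0.037 in Socs2-null liver. Between the arrays of 1 group, replicate 2 minus replicate 1, rho was 0.050 in wildtype liver at 36 h and -0.015 at 24 h, and it reached -0.11 in Socs2-null liver at 24 h. Over 7273 genes with a mean intensity above 100 it was 0.21 in wildtype and 0.091 in Socs2-null liver. In Socs2-null liver the share with both 36 h arrays above both 24 h arrays was 19.6% in the shortest and 21.6% in the longest quintile. With the hybridization-control covariate the median log2 change was 0.053 in the shortest and 0.046 in the longest quintile. The gradient in the wildtype medians was not seen with that term, which cannot be told apart from time after surgery. The actin control, whose 3′ minus 5′ log2 signal is a sign of RNA quality, stood at 0.311 and 0.327 on the 36 h arrays and 0.349 and 0.461 on the 24 h arrays, and its part in the relation was not tested.

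**Figure D5:**
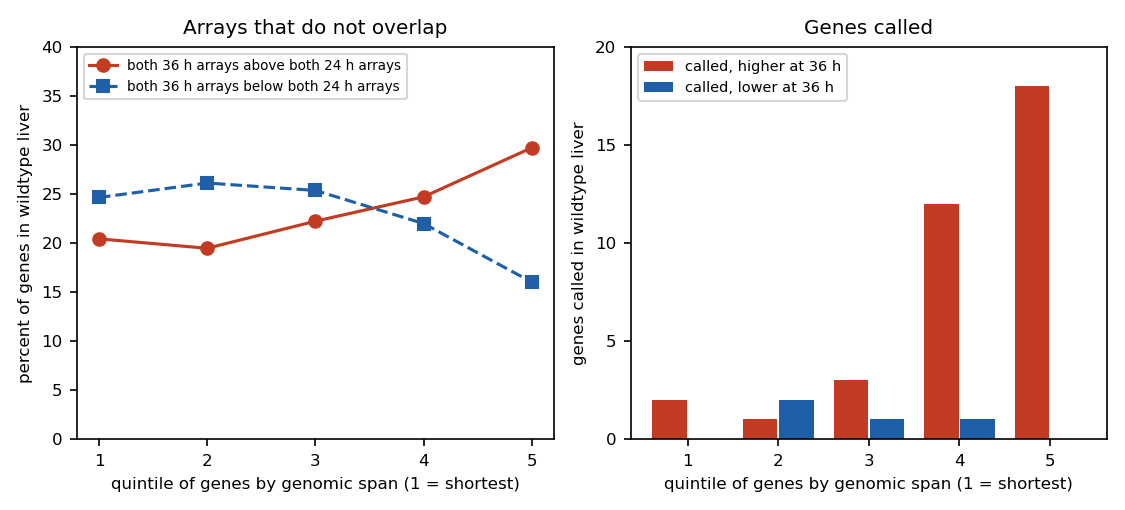
Wildtype liver by quintiles of genes ordered by genomic span, from shortest (1) to longest (5). The left panel gives the percent of genes whose 36 h arrays both lie above (red circles) or both below (blue squares) the 24 h arrays, with the lines crossing between the third and the fourth quintile, and the right panel counts the called genes, with 18 of the called rises in the longest quintile.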

How the data were processed

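Liver RNA was measured on Affymetrix mouse expression arrays. The authors deposited 1 linear intensity per probe set and array for 45141 probe sets. How background, summarization and normalization were handled upstream is not given in the sources used here. Probe sets were named through the platform annotation, in which 28898 have 1 gene, 551 several and 15588 none. A gene was read from its brightest probe set by the mean over all 12 arrays. Values were tested as log2(intensity + 16), with no filter on low values, in a model of 6 group means over all 12 arrays with limma 3.58.1 in R 4.3.3 (trend and robust variance), adjusted by the Benjamini-Hochberg method over 17097 genes at 0.05. The number of arrays limits the precision. The named genes were the 15 largest rises and 15 largest falls among called genes without overlap, up to 6 members of each list by p, every core clock, clock output and CDK inhibitor gene, and genes called between genotypes. The members and gene lists were chosen with earlier results of these data known. Fold changes are on the log2(intensity + 16) scale and understate low genes. A bound is taken against the brightest tag control. Same-numbered arrays were not treated as pairs. Alternatives were other scalings, pseudocounts, filters, probe set rules, variance models, sample sets and single arrays left out.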

Additional observations from a re-analysis of the deposited data

Results flagged for a closer look

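Probe sets that the annotation ties to no single gene were outside the comparison by gene. When all 45037 probe sets were tested together with limma, 147 of the 16139 probe sets without a single gene passed an adjusted p of 0.05 (0.911%), 126 higher at 36 h (0.781%) and 21 lower (0.13%). They are listed because they enter no comparison of named genes.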

How the results depend on the processing

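The number of called genes, 41, moved by over 1.5 times in several settings. It was 26 after centring on array medians (21 higher, 5 lower), 461 over all probe sets (396 higher, 65 lower), 0 with the hybridization-control covariate (0 higher, 0 lower), 13 with only the 4 compared arrays (9 higher, 4 lower) and 154 with only the wildtype arrays (99 higher, 55 lower). The count of lower genes was 11 with quantile normalization, 8 with array weights and 1 without the probe sets of shared sequence. With 1 array left out at a time, called genes numbered 1 to 181, higher ones 1 to 116 and lower ones 0 to 65. Deviations of same-numbered 24 h and 36 h arrays correlated at -0.040, so the numbers were not taken as pairs, and with the replicate number as a block 24 genes were called (22 higher, 2 lower). Rfxank turned to 0.063 without the probe sets of shared sequence (adjusted p = 0.813), where its remaining probe set was under the tag controls on 3 of 4 arrays. With the hybridization-control covariate the medians of 13 of the 27 pathway lists and 4 of the 10 marker lists changed sign, mitosis to -0.031 and ribosome biogenesis to 0.313 among them. The level behind this covariate moved with the groups, so its term cannot be told apart from time after surgery. The causes were not tested, apart from the changed set of features or arrays. With 2 pools per group and dim mitosis genes, small changes could be missed.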
